A study of Mus musculus with 13 samples.

Results

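The rows described here are the small RNA genes whose symbols start with Snora or Scarna in a gene-level table of C2C12, mouse muscle precursor cells that proliferate in rich serum and fuse into myotubes when serum is lowered. Members were taken by symbol alone, and 45 of the table's 23236 rows qualified, 36 Snora and 9 Scarna. The class itself was chosen with earlier results of these data known. The table compares a library labelled siLinc-Yy1 with a library labelled siNC, both poly(A)-selected RNA-seq at the myoblast stage. The prefix si commonly stands for a small interfering RNA and NC for its negative control; the labels do not spell either out. The row named lincYy1, beside Yy1 on chromosome 12, stood at 0.227 FPKM in siLinc-Yy1 and 0.360 FPKM in siNC, with q = 0.878 in the authors' deposited table, so its level does not settle the label. FPKM are fragments scaled to transcript length in kilobases and to sequencing depth. The series holds 13 samples, 4 of RNA-seq and 9 of ChIP-seq, and those not named here were not analysed here. With 1 library per condition and 1 cell line, nothing here was repeated: the values describe these libraries, and how far they hold for either condition cannot be told.

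Snora genes encode H/ACA box small nucleolar RNAs, which fold into hairpins that pair with ribosomal RNA and place pseudouridines in it. Scarna genes encode guide RNAs of the Cajal body, a nuclear compartment where the RNAs of the spliceosome are modified; in human, SCARNA2 and SCARNA9 belong to the C/D box class, so the rows are not all of the H/ACA kind. In mammals most of these RNAs lie in introns of a host gene and are trimmed out of the spliced intron, and those of the H/ACA kind are bound by the proteins dyskerin, Gar1, Nhp2 and Nop10. The mature RNAs carry no poly(A) tail, and the libraries were selected for poly(A).

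Of the 45 rows, 42 lay within the locus of a longer gene in the table and 3 (Scarna2, Scarna17 and Snora30) had a locus of their own. The table gives a nested row the span of its whole shared locus, so whether it lies in an intron or an exon, and how long it is, cannot be read from it. The 42 nested rows fell into the loci of 38 hosts, where the host is the most abundant longer row at the locus. In 5 loci more than one longer row qualified, and the host named for those members is uncertain. The hosts were 11 ribosomal protein genes, 6 Snhg genes, which are noncoding transcripts known chiefly as carriers of small nucleolar RNAs, and 21 others.

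Sequences of the small RNAs themselves are not printed here. The starts of host genes are shown because genes of the translation machinery are known to begin with a run of C and T that ties their translation to growth signals. A window of 30 bases, 15 before and 15 from the start onward, was taken from RefSeq (GRCm38.p6) for 30 of the 38 hosts. These matched by symbol with a single listed start. Snhg4, the host of Snora74a, was left out together with its chromosome. The longest run made of C and T alone, on the coding strand, is in capitals:
Rps12 (chr10:23787195-23787224, minus strand), host of Snora33, the member with the highest mean level among those above 0 in both libraries: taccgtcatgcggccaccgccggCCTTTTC
Rpl27a (chr7:109519180-109519209, plus strand), host of Snora3: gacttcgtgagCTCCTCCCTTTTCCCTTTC
Snhg12 (chr4:132308663-132308692, plus strand), host of 3 members: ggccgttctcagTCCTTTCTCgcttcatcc
Ipo7 (chr7:110018300-110018329, plus strand), host of Snora23: ttggcgCTTCTCTTTCCTTTCgcgccggtt
Haus6 (chr4:86612041-86612070, minus strand), host of Scarna8: ggactgcgCCTgcgcctgcgcagtgtagtc
A run of at least 7 bases, a length chosen after these starts were seen, was present in 5 of 9 ribosomal protein hosts, 4 of 5 Snhg hosts and 2 of 16 other hosts, against 18.4% of 22862 genes with a single start. The match describes letters in this window only.

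Small RNA rows had higher FPKM values in siLinc-Yy1 than in siNC almost throughout. Levels are FPKM as the authors estimated them. Small RNAs are short, and how the estimate treated the length of such rows is not given in the sources used here. The part of row length in these values was not tested. A value above 0 in both libraries was given for 38 rows. Over these 38, levels ran from 0.575 to 129.6 FPKM with a median of 17.2 in siLinc-Yy1, and from 0.381 to 47.7 FPKM with a median of 8.10 in siNC. The value was higher in siLinc-Yy1 in 37 of the 38 rows, and Scarna17 was the exception. In RNA from a whole culture, a change in RNA per cell and a change in the make-up of the cells cannot be told apart. At least 10 FPKM was reached by 29 of them in siLinc-Yy1 and by 15 in siNC.

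The log2 fold change is that of siLinc-Yy1 over siNC after 1 FPKM was added to each value, which understates changes of low rows. It was read for rows above 0 in both libraries with a mean of at least 1 FPKM, which 37 of the 38 passed. Scarna3b, at 0.575 FPKM in siLinc-Yy1 and 0.381 FPKM in siNC, did not. At least 2-fold higher were 22 of the 37 (59.5%), against 1.29% of the 11764 rows of the table read the same way. None was at least 2-fold lower, against 0.0425%. A log2 fold change above 0 was seen in 36 of 37, against 45.4% of all rows, and one below 0 in 1, against 54.6%. The median of the 37 was 1.29, with quartiles of 0.79 and 1.43, while the median of all rows was -0.02. Because no library is repeated, none of these shares carries a test.

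**Figure D1:**
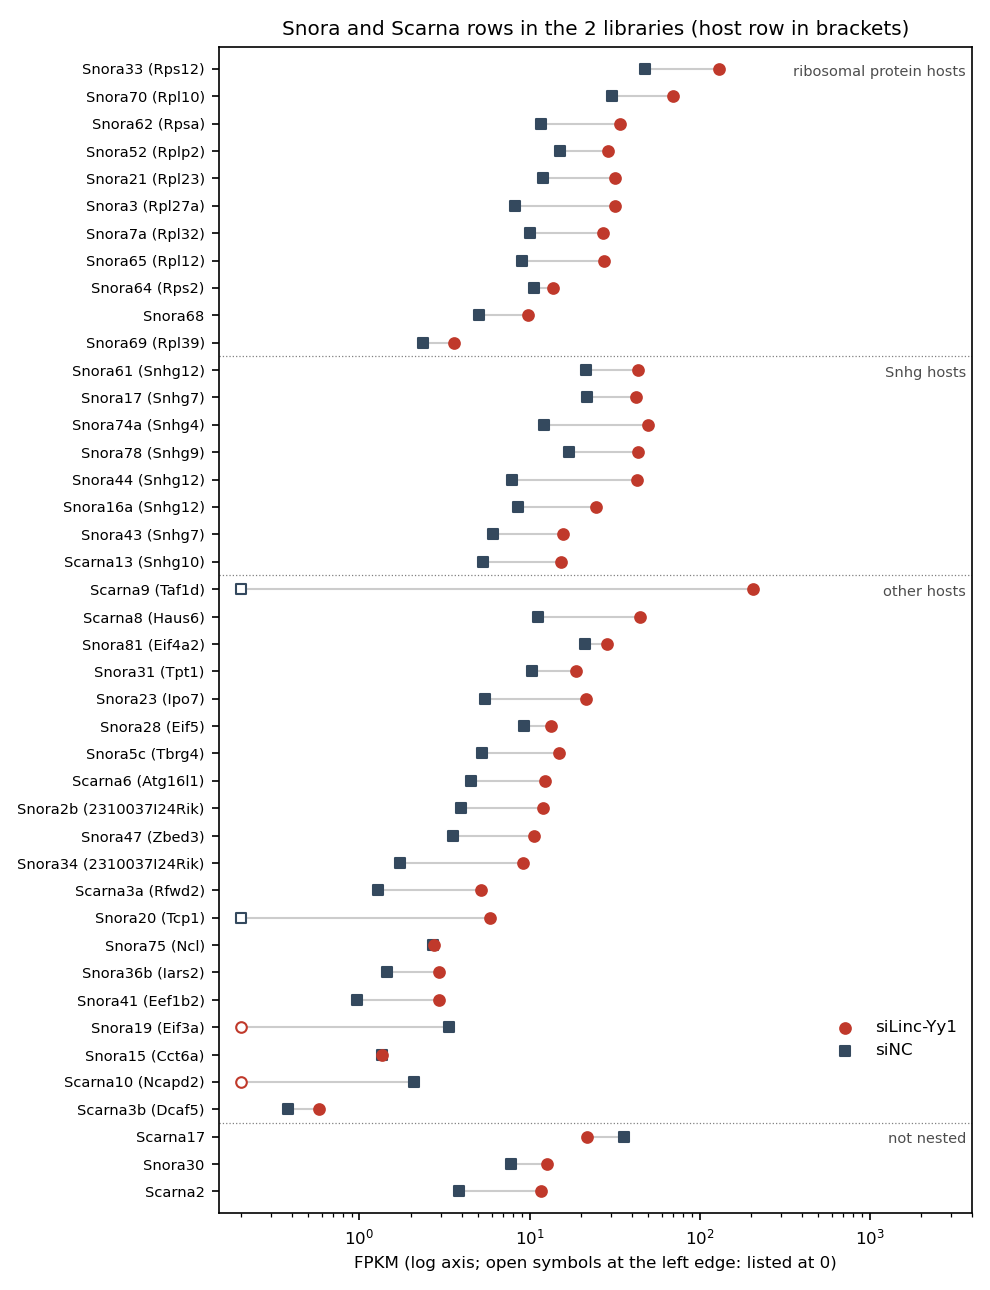
FPKM on a log axis for the 42 Snora and Scarna rows above 0 in at least 1 library, red circles for siLinc-Yy1 and dark squares for siNC, with 1 library each and the host row, where given, in brackets. Open symbols stand at the edge for values listed at 0. The circle lies to the right of the square in 37 of the 38 rows with both values above 0, and to its left in Scarna17 (21.7 FPKM in siLinc-Yy1 and 35.9 FPKM in siNC).

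The authors' deposited table called 3 of the 42 members it tested, all higher in siLinc-Yy1, against 1.29% of the 14366 rows it tested that were called higher. It called no member lower, against 0.327%. The first is Snora74a, known in human as U19. It measured 49.7 FPKM in siLinc-Yy1 and 12.1 FPKM in siNC, with q = 8.21e-05 in the authors' deposited table. Scarna13, also known as U93, lies within Snhg10 on chromosome 12 from 106268827 to 106270489 (mm9). Its levels were 15.3 FPKM in siLinc-Yy1 and 5.34 FPKM in siNC, with q = 0.00247 in the authors' deposited table. Snora78 lies within Snhg9 on chromosome 17 from 24856476 to 24856910 (mm9). Its levels were 43.3 FPKM in siLinc-Yy1 and 17.1 FPKM in siNC, with q = 0.00961 in the authors' deposited table. All 3 sit in Snhg loci. Of the other members 1 had a q under 0.5 in the authors' deposited table, Snora17 at 0.487.

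In Snhg loci every small RNA row with a readable pair had a larger log2 fold change than its host. Of the 9 members in the 6 Snhg loci, 8 were above 0 in both libraries, all 8 were higher in siLinc-Yy1, and 6 were at least 2-fold higher. Snhg12, on chromosome 4 from 131864593 to 131866939 (mm9), held 3 of them and itself measured 28.1 FPKM in siLinc-Yy1 and 26.3 FPKM in siNC. Snora44 measured 42.7 FPKM in siLinc-Yy1 and 7.94 FPKM in siNC, a log2 fold change of 2.29 and the largest among the 37. Snora16a measured 24.7 FPKM in siLinc-Yy1 and 8.54 FPKM in siNC. Snora61 measured 43.5 FPKM in siLinc-Yy1 and 21.6 FPKM in siNC. The 3 neighbours thus had ratios of 5.38, 2.90 and 2.02 at a single locus whose long transcript had a log2 fold change of 0.09. Snora61 just missed the 2-fold limit once 1 FPKM was added, with a log2 fold change of 0.98. The same locus holds the C/D box row Snord99, at 341 FPKM in siLinc-Yy1 and 130 FPKM in siNC, and how the estimate divided reads among overlapping rows, or among near-identical copies elsewhere, is not given in the sources used here.

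In the Snhg7 locus, on chromosome 2 from 26492696 to 26495764 (mm9), the small RNA rows stood above the long transcript in both libraries. Snora17 measured 42.1 FPKM in siLinc-Yy1 and 21.9 FPKM in siNC. Snora43 measured 15.7 FPKM in siLinc-Yy1 and 6.09 FPKM in siNC. Snhg7 itself was slightly lower in siLinc-Yy1, with a log2 fold change of -0.31. In the Snhg4 locus the log2 fold change was 1.95 for Snora74a and -0.38 for the host. That locus also holds Mir1949, at 43.5 FPKM in siLinc-Yy1 and 6.62 FPKM in siNC. Snora24, in Snhg8, was listed at 0 in both libraries.

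Ribosomal protein genes hosted 11 members, all above 0 in both libraries and all higher in siLinc-Yy1, 7 of them at least 2-fold. Snora33, within Rps12 on chromosome 10 from 23504989 to 23507015 (mm9), had the highest level of the 38 rows, 129.6 FPKM in siLinc-Yy1 and 47.7 FPKM in siNC. Snora70, within Rpl10 on the X chromosome, measured 70.0 FPKM in siLinc-Yy1 and 30.4 FPKM in siNC. The largest difference of this group was that of Snora3 in Rpl27a, with 31.9 FPKM in siLinc-Yy1 and 8.26 FPKM in siNC. Next came Snora65 in Rpl12 (27.4 FPKM in siLinc-Yy1 and 9.06 FPKM in siNC) and Snora62 in Rpsa (34.0 FPKM in siLinc-Yy1 and 11.6 FPKM in siNC). Snora7a, at a locus shared by Rpl32 and Cand2, measured 27.1 FPKM in siLinc-Yy1 and 10.0 FPKM in siNC. Snora21 in Rpl23 measured 31.8 FPKM in siLinc-Yy1 and 11.97 FPKM in siNC.

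The other 4 members of this group differed less than 2-fold, and 3 of them are described. Snora52 in Rplp2 measured 29.0 FPKM in siLinc-Yy1 and 15.1 FPKM in siNC. Snora69 in Rpl39 was at 3.59 FPKM in siLinc-Yy1 and 2.38 FPKM in siNC. The smallest difference was that of Snora64 in Rps2, at 13.7 FPKM in siLinc-Yy1 and 10.6 FPKM in siNC. The ribosomal protein hosts were themselves higher in siLinc-Yy1, all 11 of them, with a median log2 fold change of 0.74, against 1.34 for the 11 small RNA rows inside them. Per length, the small RNA rows stood far below these hosts, at a median of 5.21% of the host level in siLinc-Yy1 and 3.39% in siNC.

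The remaining hosts, 21 genes with 22 members, include factors of translation such as Eif4a2, Eif5 and Eef1b2, the chaperonin genes Cct6a and Tcp1, and Ncl, which encodes the nucleolar protein nucleolin. Of the 22 members, 16 were above 0 in both libraries, 15 of these passed the filter, and 8 were at least 2-fold higher in siLinc-Yy1. Snora34 and Snora2b share the locus of 2310037I24Rik on chromosome 15 from 98349532 to 98364652 (mm9). Snora34 measured 9.13 FPKM in siLinc-Yy1 and 1.73 FPKM in siNC. Snora2b measured 11.98 FPKM in siLinc-Yy1 and 3.95 FPKM in siNC. The host differed little, with a log2 fold change of 0.14.

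Snora23, within Ipo7, the gene of a nuclear import receptor, measured 21.4 FPKM in siLinc-Yy1 and 5.50 FPKM in siNC. Snora5c in Tbrg4 measured 14.97 FPKM in siLinc-Yy1 and 5.26 FPKM in siNC, and Snora47 in Zbed3 measured 10.6 FPKM in siLinc-Yy1 and 3.55 FPKM in siNC. Both stood near 3 times their siNC level, with ratios of 2.85 and 2.98. Below 2-fold were Snora31 in Tpt1 (18.7 FPKM in siLinc-Yy1 and 10.4 FPKM in siNC), Snora28 in Eif5 (13.5 FPKM in siLinc-Yy1 and 9.31 FPKM in siNC) and Snora81 in the locus of Eif4a2 (28.6 FPKM in siLinc-Yy1 and 21.1 FPKM in siNC). Snora41, in the gene of the elongation factor Eef1b2, measured 2.92 FPKM in siLinc-Yy1 and 0.966 FPKM in siNC, a ratio of 3.03, and just missed the 2-fold limit once 1 FPKM was added. Snora36b measured 2.92 FPKM in siLinc-Yy1 and 1.45 FPKM in siNC, and also missed that limit once 1 FPKM was added. Snora75, within Ncl, and Snora15, within Cct6a, hardly differed. Snora75 measured 2.73 FPKM in siLinc-Yy1 and 2.70 FPKM in siNC, and Snora15 measured 1.36 FPKM in siLinc-Yy1 and 1.35 FPKM in siNC.

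The Cajal body rows split into 5 that were at least 2-fold higher in siLinc-Yy1, 1 that was lower, and 3 that could not be read. Scarna8, within Haus6 on chromosome 4 from 86227189 to 86257926 (mm9), measured 44.4 FPKM in siLinc-Yy1 and 11.2 FPKM in siNC. Haus6, which encodes a subunit of the spindle complex augmin, had a log2 fold change of -0.30. Scarna3a in Rfwd2 measured 5.22 FPKM in siLinc-Yy1 and 1.29 FPKM in siNC. Scarna6 in Atg16l1, an autophagy gene, measured 12.3 FPKM in siLinc-Yy1 and 4.54 FPKM in siNC. With Scarna13 and Scarna2 these 5 rows, grouped because they were at least 2-fold higher, had log2 fold changes of 1.26 to 1.89.

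The 3 rows with a locus of their own did not all go the same way. Scarna2, on chromosome 3 from 108357260 to 108357320 (mm9), measured 11.6 FPKM in siLinc-Yy1 and 3.85 FPKM in siNC. Snora30, on chromosome 7 from 134671411 to 134671517 (mm9), measured 12.7 FPKM in siLinc-Yy1 and 7.83 FPKM in siNC. Scarna17 measured 21.7 FPKM in siLinc-Yy1 and 35.9 FPKM in siNC, a log2 fold change of -0.70 and the only one below 0 among the 37. These loci span 61, 107 and 62 bases. At the depth estimated below, the Scarna2 values stand for at most 30.2 fragments in siLinc-Yy1 and 13.9 in siNC. Those of Scarna17 stand for at most 57.3 in siLinc-Yy1 and 132 in siNC. These limits use the locus length and a depth read from longer genes, and the true counts can be far smaller. The ratio of siLinc-Yy1 to siNC was 3.02 for Scarna2 and 0.605 for Scarna17. In the authors' deposited table q was 0.998 for both.

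An exact 0 was treated as unresolved, since it can be a failed estimate. Scarna9, at a locus shared by Taf1d, 4931406C07Rik and 5830418K08Rik, stood at 206 FPKM in siLinc-Yy1 and was listed at 0 in siNC. Snora20, within Tcp1 or its neighbour Acat3, stood at 5.82 FPKM in siLinc-Yy1 and was listed at 0 in siNC. The reverse held for Snora19 in Eif3a, listed at 0 in siLinc-Yy1 and at 3.36 FPKM in siNC, and for Scarna10 in Ncapd2, listed at 0 in siLinc-Yy1 and at 2.09 FPKM in siNC. Snora24, Snora26 and Snora35 were listed at 0 in both libraries. The host of Snora35 is the serotonin receptor gene Htr2c, which did not reach a mean of 1 FPKM. The hosts of the other 6 unresolved rows stood between 1.48 and 124 FPKM in siLinc-Yy1 and between 2.16 and 106 FPKM in siNC.

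Small RNA rows mostly had larger log2 fold changes than their hosts, as the plot of the pairs shows. Of 34 nested rows with a readable pair, 30 had a larger log2 fold change than the host and 4 a smaller one, and in 14 the excess was at least 2-fold. The median excess over the host was 0.76 on the log2 scale, and the values ran from -0.52 to 2.33. It was 1.39 in Snhg loci, from 0.66 to 2.33 over 8 rows. In other hosts it was 1.25, from -0.52 to 2.20 over 15 rows. In ribosomal protein genes it was 0.45 over 11 rows, of which 9 stood above and 2 below the host. The Snhg loci and the other hosts overlapped over most of their ranges, and no difference between the kinds of host was tested. Among the 4 rows below their hosts were Snora64, Snora75 and Snora15. The excess in ribosomal protein genes changed when a trend of the changes with the level of a row was subtracted. With a running median along the level subtracted from both rows of a pair, a split by host chosen after the data were seen, it was 1.10 in ribosomal protein genes, with all 11 rows above their hosts. It was then 1.41 in Snhg loci and 1.35 in other hosts, and Snora75 was the 1 row of the 34 below its host. Ribosomal protein hosts are among the rows that set the running median at their level, so it can remove a rise they share. Across the 34 pairs, which share both libraries and in part their hosts, Pearson's r of the changes was -0.15 and Spearman's rho was -0.14, given as a description.

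**Figure D2:**
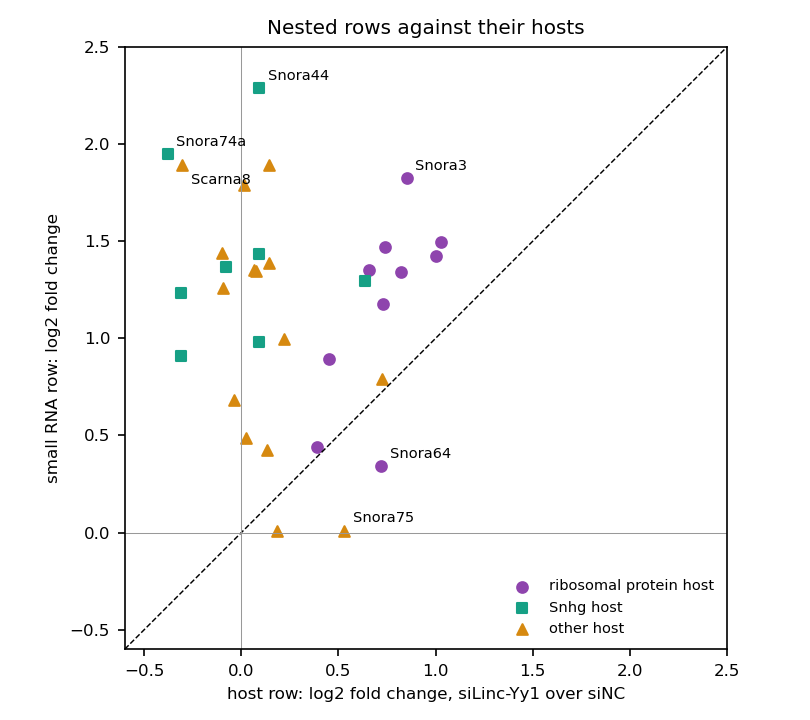
Log2 ratio of the siLinc-Yy1 level to the siNC level for 33 of the 34 nested small RNA rows (vertical axis) against that of their host rows (horizontal axis), 1 library per condition, coloured by the kind of host. The dashed diagonal marks equal change. Of the points, 30 lie above it. Over all 34 pairs, the median excess was 1.39 for Snhg hosts, 1.25 for other hosts and 0.45 for ribosomal protein hosts. With the trend along the level subtracted, these medians were 1.41, 1.35 and 1.10.

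With the same running median subtracted, the median log2 fold change of the ribosomal protein hosts was 0.10, where it was 0.74 without that step. The small RNA rows lie lower on the scale of levels, and their median was 1.32 after this step, with 36 of 37 above 0. Among rows that are no small RNA, in the members' own range of mean level (1.36 to 88.7 FPKM), 0.520% of 10389 were at least 2-fold higher. Scaling both libraries to equal summed FPKM shifted the median of all rows to -0.30, and the members then had a median of 0.98, with 34 of 37 above 0. Snora75 and Snora15 joined Scarna17 below 0 under that scaling. Among all rows it left 79 at least 2-fold higher and 22 lower, where the deposited scale gave 152 and 5.

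The C/D box small nucleolar RNAs, which guide 2′-O-methylation and come out of introns in the same way, were read for comparison. Of 69 Snord rows 46 were read the same way, and the median log2 fold change was 1.27. Of these, 32 (69.6%) were at least 2-fold higher in siLinc-Yy1 and 0 lower, against 1.29% and 0.0425% of all rows. Among microRNA rows 12 of 66 (18.2%) were at least 2-fold higher and 2 (3.03%) lower, with a median of 0.35. At 0 in siLinc-Yy1 alone were 6 Snord, 37 microRNA and 1350 of all rows. At 0 in siNC alone were 2 Snord, 24 microRNA and 688 of all rows. The differences between these classes were not tested. Terc, the telomerase RNA, which ends in an H/ACA domain, measured 1.97 FPKM in siLinc-Yy1 and 0.397 FPKM in siNC, with q = 0.0127 in the authors' deposited table.

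**Figure D3:**
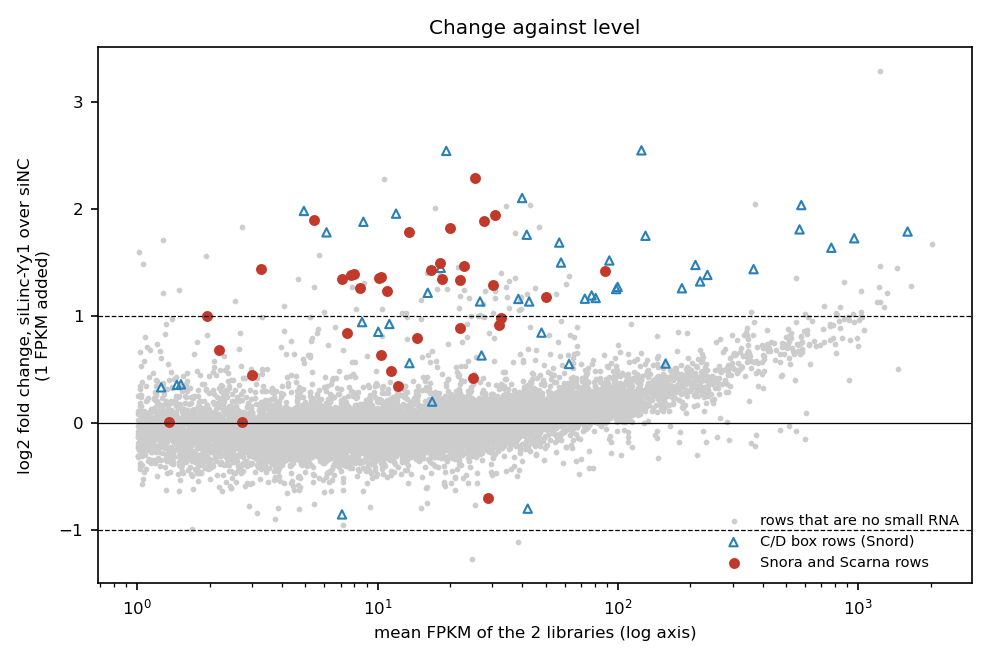
Log2 ratio of the siLinc-Yy1 level to the siNC level, after 1 FPKM was added, against the mean FPKM of the libraries on a log axis, 1 library per condition. Red points are the 37 Snora and Scarna rows, blue triangles the 46 Snord rows and grey points the rows that are no small RNA, and dashed lines mark 2-fold. The red points lie mostly above the grey band, 22 of them at or beyond 2-fold, with Scarna17 below 0.

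The genes of the proteins that bind, assemble and trim these RNAs were close in both libraries. So were those of the pseudouridine synthases that work without a guide RNA and of the C/D box core proteins. None of the 69 rows of the 6 protein lists below differed 2-fold, against 1.29% of all rows higher and 0.0425% lower. None was called in the authors' deposited table, against 1.29% of the rows it tested called higher and 0.327% lower. A count of 0 among 69 rows is near these shares. Positive values in these lists depend on the scale, since 0 of the 69 rows stayed above 0 at equal summed FPKM. Of the core proteins, dyskerin (Dkc1), the pseudouridine synthase, measured 29.9 FPKM in siLinc-Yy1 and 29.6 FPKM in siNC. Gar1 measured 31.9 FPKM in siLinc-Yy1 and 30.3 FPKM in siNC. Nhp2 measured 86.4 FPKM in siLinc-Yy1 and 79.8 FPKM in siNC, and Nop10 measured 80.7 FPKM in siLinc-Yy1 and 70.5 FPKM in siNC. All 4 had log2 fold changes between 0.02 and 0.19, against 36 of 37 small RNA rows above 0 with a median of 1.29. At equal summed FPKM the median of the 4 proteins was -0.22.

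The 11 assembly factors had a median log2 fold change of -0.08, 4 above and 7 below 0. Naf1, which holds the place of Gar1 during assembly, measured 5.69 FPKM in siLinc-Yy1 and 6.997 FPKM in siNC, and Shq1, a chaperone of dyskerin, measured 4.30 FPKM in siLinc-Yy1 and 5.37 FPKM in siNC. Tcof1 and Ruvbl2 had log2 fold changes of 0.24 and 0.23. The 16 Cajal body and snRNP assembly genes had a median of -0.13, 4 above and 12 below 0. Coil, the marker protein of the Cajal body, measured 6.61 FPKM in siLinc-Yy1 and 7.20 FPKM in siNC. Wrap53, which brings H/ACA guide RNAs to that body, measured 10.5 FPKM in siLinc-Yy1 and 11.8 FPKM in siNC. Uspl1, Ddx20, Gemin6 and Gemin2 had the largest log2 fold changes of this list, -0.31, -0.30, -0.28 and -0.25.

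The 22 genes of 3′ trimming and decay, among them the exosome subunits, had a median of -0.10, with 6 above and 16 below 0. Exosc3 measured 17.4 FPKM in siLinc-Yy1 and 21.8 FPKM in siNC, Exosc6 10.8 FPKM in siLinc-Yy1 and 13.3 FPKM in siNC, and C1d 5.76 FPKM in siLinc-Yy1 and 6.86 FPKM in siNC. The catalytic subunit gene Dis3 measured 16.2 FPKM in siLinc-Yy1 and 18.6 FPKM in siNC. The 12 pseudouridine synthases that work without a guide RNA had a median of -0.10, 3 above and 9 below 0. Pus7l, Pus10 and Pus1 stood at -0.25, -0.16 and -0.16, and Trub1 at 0.15. The 4 core proteins of C/D box RNAs had a median of 0.23, and the highest of them, Nop56, was at 0.28. That C/D median was -0.09 at equal summed FPKM. With the running median along the level subtracted it was -0.02, and the core H/ACA median of 0.09 became 0.01.

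**Figure D4:**
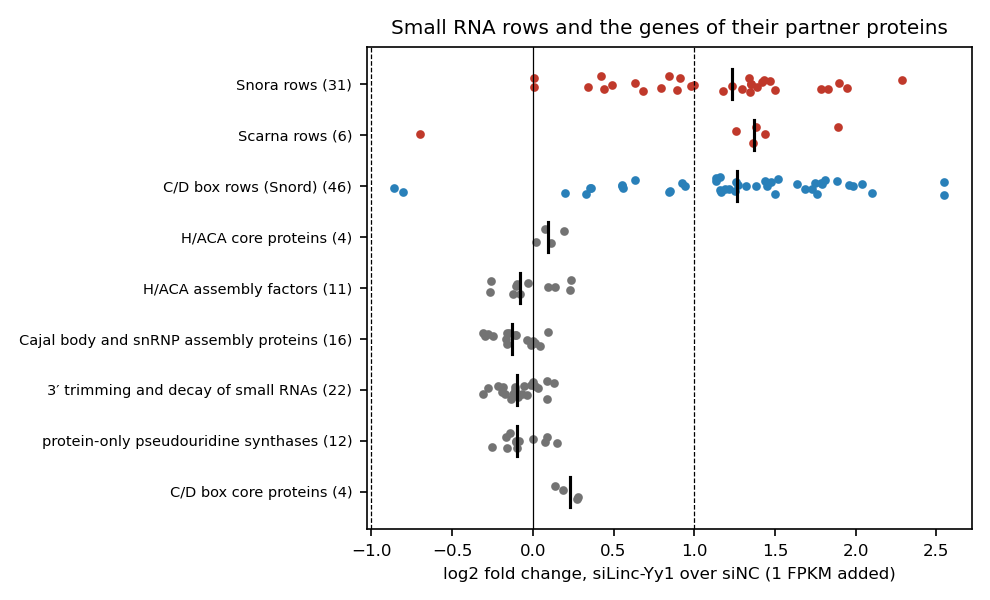
Log2 ratio of the siLinc-Yy1 level to the siNC level, after 1 FPKM was added, for each row of the small RNA classes and of the protein lists, 1 library per condition, with the number of rows in brackets. Short black bars are medians and dashed lines mark 2-fold. Medians of the small RNA classes lie between 1.23 and 1.37, and those of the protein lists between -0.13 and 0.23.

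Some facts of the libraries bear on all these values. Steps of low FPKM values in single-exon receptor genes put the depth near 42.5 M fragments for siLinc-Yy1 and 59.3 M for siNC, provided the values were not scaled further. They left 56.2% of 505 rows in siLinc-Yy1 and 59.4% of 608 in siNC within 0.1 of a whole fragment, too few for a test on counts. The 6 myoblast markers were expressed, at 2.63 to 487 FPKM in siLinc-Yy1 and 3.92 to 322 FPKM in siNC. Of 8 markers of other cell types, 7 were at or below 0.379 FPKM in siLinc-Yy1 and 0.173 FPKM in siNC, none was at 0, and Cdh1, of epithelial cells, was called higher at these low values (q = 0.0198 in the authors' deposited table). Cd68, of leukocyte lysosomes, stood at 4.43 FPKM in siLinc-Yy1 and 4.48 FPKM in siNC. The part of other cell types, and of the difference in depth, in the values of the small RNA rows was not tested.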

How the data were processed

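The deposited file is a gene-level Cuffdiff comparison, given in 2 byte-identical copies. FPKM values, 1 per gene and library, were estimated by the authors, per the file headers. Each row's p-value, with its q-value, is from the authors' own test, per the file headers. The log2 ratio that the authors deposited was not used, since it holds a placeholder for nearly all rows at 0 in 1 library. The header has siNC and siLinc-Yy1 where Cuffdiff writes its first and second condition, and the value columns were read in that order. TopHat2 2.0.4, Cufflinks 2.1.1, Cuffdiff 2.0.4 and build mm9 appear in the submitters' processing notes. Annotation, strand use and scaling: not given in the sources used here. Starts in the locus column were taken to count from 0 and are printed from 1.

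Members were rows whose gene column starts with Snora or Scarna. A host was a longer row whose locus equals or contains that of the member, the most abundant where several did. Changes are log2((siLinc-Yy1 FPKM + 1) / (siNC FPKM + 1)), for rows above 0 in both libraries with a mean of at least 1 FPKM, and a fold of 2 was counted. The running median spans 301 rows ordered by mean FPKM. No test was run. Named rows were every Scarna row above 0 in a library, the 12 highest and 12 lowest changes among Snora rows of at least 5 FPKM, the 8 most abundant Snora rows, the authors' calls, rows at 0 in 1 library, their hosts, up to 4 rows per list, and the core proteins, Coil and Wrap53. Other members, neighbouring small RNA rows, Terc, lincYy1 and Cdh1 were named after their values were seen. Members and lists were chosen with earlier results of these data known. The calculations were tested on simulated data. Python 3.11.15, pandas 2.3.3 and scipy 1.17.1 were used. Alternatives were the pseudocount, the filter, the scaling, the treatment of zeros, the fold and nesting. The host of 1 member is not reported here.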

Additional observations from a re-analysis of the deposited data

How the results depend on the processing

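The count of 22 members at least 2-fold higher in siLinc-Yy1 became 14 with a pseudocount of 5 FPKM. It became 9 of the 14 rows with a mean of at least 20 FPKM, against 2.16% of all 4495 such rows. It was 1 of the 3 rows that are not nested, where 1.29% of all rows were higher. By the calls of the authors' deposited table it was 3, against 1.29% of the rows tested there. The count of 0 members at least 2-fold lower became 1 at equal summed FPKM, against 0.189% of all rows. It became 1 at a fold of 1.5. It became 2 when rows at 0 in 1 library were kept, against 0.178% of all rows. The share of all rows was not counted for the pseudocount of 5 FPKM or the fold of 1.5. The median log2 fold change of 1.29 became 0.64 over the 3 rows that are not nested. It ran from 0.90 (pseudocount of 5 FPKM) to 1.43 (no pseudocount) under the other alternatives. The median excess over the host kept its sign under every alternative tried, from 0.52 among rows of at least 20 FPKM to 1.18 after subtraction of the running median. That step, split by kind of host after the data were seen, gave a median excess of 1.10 in ribosomal protein genes, where it was 0.45 without it. At equal summed FPKM, 78.2% of all calls were higher, against 96.8% at the authors' scaling. Of 600 values of 100 named rows under 6 alternatives, 13 moved by over 1.5-fold and none of at least 2-fold size changed sign. The causes were not tested. No paired analysis was possible because each condition has 1 library.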

Other observations

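Pairs of low members held values in small whole proportions, as rows of few fragments can. Snora15 and Snora75 stood at 1.36 and 2.73 FPKM in siLinc-Yy1 and at 1.35 and 2.70 FPKM in siNC, a proportion of 1 to 2 in both libraries within 2e-05. Snora36b and Snora41 had the same value in siLinc-Yy1, 2.92 FPKM, and stood at 1.45 and 0.966 FPKM in siNC, a proportion of 3 to 2. For long single-exon genes, 1 fragment was worth 1.40 times as many FPKM in siLinc-Yy1 as in siNC. Snora15 and Snora75 each had a ratio of siLinc-Yy1 to siNC of 1.01. Whether the value of 1.40 holds for short rows was not tested.

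C/D box rows shared a locus with H/ACA members in 4 cases, and stood above them per length in 3, the Snhg12 locus among these. In the Rps12 locus Snord100 measured 1170 FPKM in siLinc-Yy1 and 375 FPKM in siNC, beside Snora33 at 129.6 FPKM in siLinc-Yy1 and 47.7 FPKM in siNC. In the Ncl locus Snord82 measured 112 FPKM in siLinc-Yy1 and 49.4 FPKM in siNC, beside Snora75 at 2.73 FPKM in siLinc-Yy1 and 2.70 FPKM in siNC. In the Eif4a2 locus Snord2 was listed at 0 in siLinc-Yy1 and stood at 9.87 FPKM in siNC, beside Snora81 at 28.6 FPKM in siLinc-Yy1 and 21.1 FPKM in siNC.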
